A study of Homo sapiens with 6 samples.

Results

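HA peaks of tagged MMP-2 and H3K4me3 regions were examined at 10 genes of the HIF pathway, by which cells respond to oxygen. These are the alpha subunits HIF1A, EPAS1 and HIF3A, the beta subunits ARNT and ARNT2, the prolyl hydroxylases EGLN1, EGLN2 and EGLN3, the ubiquitin ligase subunit VHL, and the asparaginyl hydroxylase HIF1AN. They are 10 of 20163 protein coding genes of GENCODE on GRCh37. The group was chosen by the HA fold enrichment of 1 of its genes: HIF3A holds the HA site of highest mean enrichment in the series, and that site has no H3K4me3. The values at HIF3A are therefore described without a test, and the other 9 were listed as the remaining core genes of the pathway.

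Hypoxia-inducible factor (HIF) is a transcription factor made of an oxygen-labile alpha subunit and a stable beta subunit. While oxygen is plentiful, EGLN enzymes hydroxylate prolines of the alpha subunit, VHL recognises the hydroxylated protein and directs its degradation, and HIF1AN hydroxylates an asparagine and so blocks the binding of coactivators. In hypoxia the alpha subunit accumulates, joins ARNT and binds DNA at hypoxia response elements, which share the core ACGTG or GCGTG.

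The data are native ChIP-Seq (nChIP-Seq) of U2OS osteosarcoma cells harvested 2 days after reaching confluence. MMP-2 is a secreted gelatinase that also cuts the N-terminal tail of histone H3 in the nucleus. In the ProMMP2-3xHA line, a stably integrated and always active transgene supplies pro-MMP-2 tagged with 3xHA at its C-terminus, so that an HA antibody recovers it. This line provided 3 HA replicates, the list of the merged replicates and 1 H3K4me3 library, whereas the untagged WT line provided 1 H3K4me3 library and an HA sample whose own peaks were not analysed here. No hypoxia or inhibitor is named for any sample, and whether the ProMMP2-3xHA line is 1 clone was not given. Replicates 1, 2 and 3 held 6401, 9193 and 8933 peaks with median fold enrichments of 4.88, 5.29 and 4.60. Fold enrichment is the peak caller's value at the summit, the HA pileup scaled to control depth plus 1 over the control background plus 1. It is therefore smaller than the plain ratio of HA fragments to the number expected from the control, and the more so where the control background is low. The number of fragments could be recovered at all 24 HA summits of the HIF pathway genes. The mean HA coverage of the libraries was inferred, not counted from reads, as 4.74, 4.34 and 4.23 fragments per base. It is the commonest control background times the ratio of HA to control depth, as estimated from the peak lists. The 95% Poisson intervals given with fragments cover counting error only.

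An HA peak of at least 1 list lay in, or within 1 kb of, 9 of the 10 genes, against 45.6% of all protein coding genes. HIF3A is 1 of the 9 through the site by which the group was chosen. The sequences below are shown because they separate the kinds of site described here, with the HIF response element core (ACGTG or GCGTG, or their reverse complements CACGT and CACGC) in capitals where it occurs. All are given on the plus strand of GRCh37. The first lies around the centre of the HIF3A site, at chr19:46802298-46802597 within intron 1 of the canonical transcript. The next pair are the remaining sites within annotated genes that lie away from H3K4me3, at chr2:46542525-46542717 in intron 1 of EPAS1 and at chr14:34644233-34644505 in the span of longer EGLN3 transcripts outside the canonical one. The last pair lie upstream of the canonical TSSs of EPAS1, at chr2:46523975-46524274, and of EGLN1, at chr1:231558224-231558423, inside H3K4me3 regions.
HIF3A intron 1: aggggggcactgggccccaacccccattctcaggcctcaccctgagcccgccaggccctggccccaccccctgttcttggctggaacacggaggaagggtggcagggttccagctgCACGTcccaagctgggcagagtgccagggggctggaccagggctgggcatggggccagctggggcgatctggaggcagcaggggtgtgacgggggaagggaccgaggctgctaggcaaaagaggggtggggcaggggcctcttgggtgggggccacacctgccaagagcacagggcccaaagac
EPAS1 intron 1: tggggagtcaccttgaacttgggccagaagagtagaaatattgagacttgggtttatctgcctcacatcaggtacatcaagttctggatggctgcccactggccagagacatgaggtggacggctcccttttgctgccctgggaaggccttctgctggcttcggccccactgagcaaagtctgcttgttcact
EGLN3 first distal site: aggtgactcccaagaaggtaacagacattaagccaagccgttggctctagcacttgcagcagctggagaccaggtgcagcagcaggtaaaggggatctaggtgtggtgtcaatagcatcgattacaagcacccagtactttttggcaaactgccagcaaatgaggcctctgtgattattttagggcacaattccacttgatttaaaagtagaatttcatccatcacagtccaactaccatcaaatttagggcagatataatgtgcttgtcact
EPAS1 upstream: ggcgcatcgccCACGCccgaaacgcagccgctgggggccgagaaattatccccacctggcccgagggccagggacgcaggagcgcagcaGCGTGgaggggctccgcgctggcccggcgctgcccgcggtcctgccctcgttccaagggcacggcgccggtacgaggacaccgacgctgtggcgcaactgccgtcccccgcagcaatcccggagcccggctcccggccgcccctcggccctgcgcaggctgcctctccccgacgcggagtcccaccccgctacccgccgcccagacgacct
EGLN1 upstream: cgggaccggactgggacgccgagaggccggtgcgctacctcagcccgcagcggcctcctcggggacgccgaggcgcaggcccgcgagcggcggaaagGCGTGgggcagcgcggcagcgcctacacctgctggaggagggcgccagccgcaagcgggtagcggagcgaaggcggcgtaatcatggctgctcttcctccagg

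The HIF3A stretch held 6 CpG dinucleotides and 1 core, which started 30 bp before the summit of replicate 1. By contrast, the EPAS1 upstream stretch held 40 CpG and 2 cores and the EGLN1 stretch 27 CpG and 1 core. No core was found in the EPAS1 intron 1 and EGLN3 distal stretches, which held 2 CpG each.

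HIF3A encodes the alpha subunit with the most varied isoforms, some of which oppose the other alpha subunits. The gene lies at chr19:46800299-46846690 on the plus strand, and its HA site at chr19:46802173-46802685 is 513 bp wide and centred 2130 bp downstream of the canonical TSS. The site is intronic without exonic or UTR bases, and its edge lies 490 bp from the TSS of a shorter coding HIF3A transcript. Fold enrichment was 66.7 in replicate 1, 79.7 in replicate 2 and 8.75 in replicate 3, with a mean of 51.7 ± 37.8 (SD, n = 3). Replicate 3 was far below the other replicates, so that the SD was close to the mean. In fragments, the summit was covered by 947 (888 to 1009), 892 (834 to 953) and 102 (83.2 to 124), compared to 10.7, 8.42 and 9 expected from the control. The interval of replicate 3 does not overlap those of replicates 1 and 2, whereas the expected numbers were alike. The control background was 3.00 fragments per base in each replicate, above the commonest control background of 1.33, 1.55 and 1.41. The series holds 1 HA sample of WT cells, so the control values of the replicates may not be independent.

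The position of the HIF3A site was the same in every replicate. Its summits lay 2145, 2157 and 2147 bp downstream of the canonical TSS, in peaks of 513, 661 and 151 bp. It ranked first of the 6401 peaks of replicate 1 and first of the 9193 peaks of replicate 2, but 383 of the 8933 peaks of replicate 3. All 483 of its 31-base words occur once in GRCh37, so the site is not a copy of sequence elsewhere in the assembly at that length. Nearest to it on the downstream side, H3K4me3 lay 47277 bp away in ProMMP2-3xHA cells and 47043 bp away in WT cells, in both at the TSS of PPP5C, which encodes a phosphatase. On the upstream side the gaps were 86331 and 96401 bp. HIF3A was thus the only one of the 10 genes with no H3K4me3 within 1 kb of the TSS of any coding transcript in either line.

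**Figure D1:**
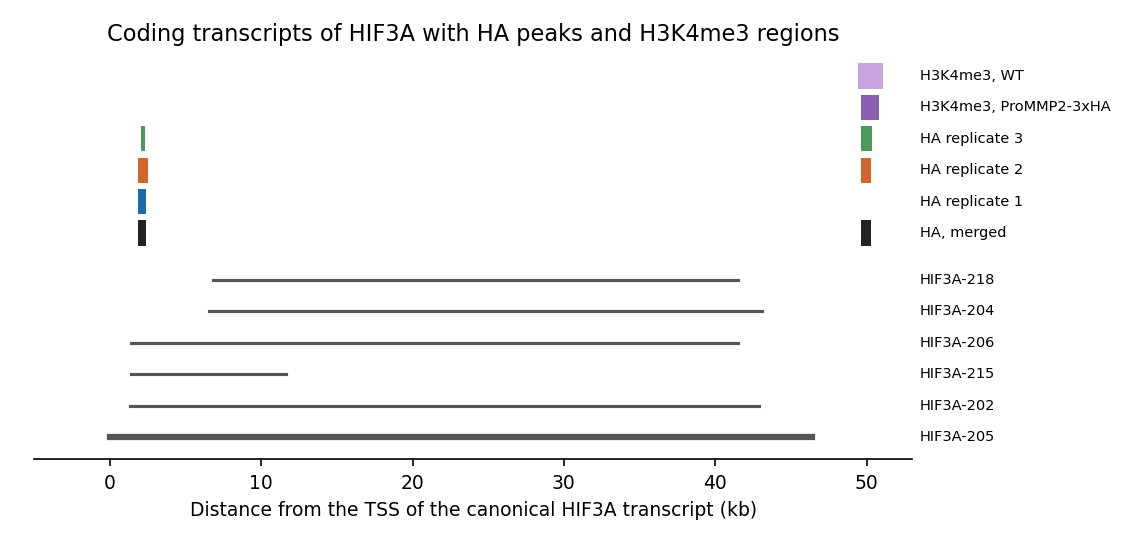
Coding transcripts of HIF3A (grey lines, canonical transcript HIF3A-205 thick) with the HA peaks and H3K4me3 regions as bars, by distance in kb from the canonical TSS. Each HA list has a bar near 2 kb, within the canonical transcript, and the H3K4me3 bars appear only beyond the end of the gene at PPP5C, 47277 bp (ProMMP2-3xHA) and 47043 bp (WT) from the HA site.

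The other alpha subunits had HA at their promoters, HIF1A in every replicate and EPAS1 in replicates 1 and 2 only. HIF1A, the alpha subunit found in most tissues, lies at chr14:62162231-62214977 on the plus strand, and its HA site at chr14:62161722-62162902 spans the TSS and covers 380 exonic bases, of which 292 are annotated as UTR. In replicates 1, 2 and 3 its fold enrichment was 6.41, 7.55 and 8.04 (mean 7.33 ± 0.836, SD, n = 3), from 90 (72.4 to 111), 94 (76.0 to 115) and 99 (80.5 to 121) fragments against 11.0, 10.0 and 9.68 expected. All 3 replicates overlapped in their intervals, with summits 135, 121 and 163 bp downstream of the TSS. In replicate 3, where the HIF3A site had 102 fragments, the HIF1A summit had nearly as many, whereas in replicates 1 and 2 HIF3A had 947 and 892 fragments against 90 and 94 at HIF1A. HIF1A lay in the widest H3K4me3 regions among the canonical TSSs of the 10 genes, 3501 bp in ProMMP2-3xHA and 4270 bp in WT cells.

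EPAS1 encodes HIF-2 alpha, the subunit prominent in endothelium and in the regulation of erythropoietin. The gene is annotated at chr2:46520806-46613836 on the plus strand, but its 5′ end comes from a transcript without a defined coding sequence, and the canonical TSS lies at position 46524546. HA was found at chr2:46523932-46524254, centred 453 bp upstream of the canonical TSS, with a fold enrichment of 3.23 in replicate 1 and 3.43 in replicate 2 (mean 3.33 ± 0.144, SD, n = 2). No peak was called there in replicate 3. Among the peaks of replicates 1 and 2 the site was low, at percentiles 3.05 and 6.97. Its mean is the lowest of the sites found in more than 1 replicate, although its 54 and 55 fragments were close to the 46, 57 and 57 at EGLN1. The control gave 14.3 and 14.0 expected fragments at this EPAS1 site, against 4.74, 4.34 and 4.23 at EGLN1. The EGLN1 values rest on the commonest control background of each replicate (1.33, 1.55 and 1.41). That background was taken as the lowest possible when fragments were recovered. The second EPAS1 site, at chr2:46542525-46542717 in intron 1 and 18075 bp downstream of the canonical TSS, reached 5.85 and 4.22 in replicates 1 and 2 (mean 5.03 ± 1.15, SD, n = 2) and no peak in replicate 3. It lay 16347 bp (ProMMP2-3xHA) and 16234 bp (WT) from the nearest H3K4me3, which was the region at the EPAS1 promoter. The intronic sites of EPAS1 and HIF3A therefore both lay away from H3K4me3, and both were lower or absent in replicate 3, but the EPAS1 site had 59 and 28 fragments compared to 947 and 892.

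Of the beta subunits, ARNT is the common partner of the alpha subunits and ARNT2 its relative with a more restricted, largely neural expression. ARNT lies at chr1:150782189-150849184 on the minus strand. Its HA site at chr1:150848711-150849571 spans the TSS, with a fold enrichment of 3.96 in replicate 1 and 6.27 in replicate 2 (mean 5.12 ± 1.63, SD, n = 2). The 30 (20.2 to 42.8) and 43 (31.1 to 57.9) fragments overlap in their intervals. As ratios to the expected number they were 6.11 and 9.56, and the difference between these replicates was not tested. Of its 831 words of 31 bases, 781 occur once in GRCh37. ARNT2 lies at chr15:80696692-80890274 on the plus strand and had no merged HA peak. A peak of replicate 2 alone, at chr15:80696086-80696702, had a fold enrichment of 5.01 and 33 fragments against 4.34 expected, with its summit 198 bp upstream of the canonical TSS. The HA signal at both beta subunits lay within H3K4me3 regions, of 1486 and 1965 bp at ARNT and 1095 and 1384 bp at ARNT2 in ProMMP2-3xHA and WT cells.

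The 3 prolyl hydroxylase genes differed in their HA peaks. EGLN1 encodes PHD2, the main enzyme that sets HIF levels in normal oxygen, and lies at chr1:231499497-231558033 on the minus strand. Its HA site at chr1:231557819-231558473 had fold enrichments of 5.97, 8.36 and 8.30 (mean 7.54 ± 1.37, SD, n = 3), with 46 (33.7 to 61.4), 57 (43.2 to 73.9) and 57 (43.2 to 73.9) fragments. The summits lay 280, 302 and 293 bp upstream of the TSS, on the other side of the TSS from those of HIF1A. The mean fold enrichments of EGLN1 and HIF1A differed by less than the SD of either. The plain ratio of fragments to the expected number was 9.70, 13.1 and 13.5 at EGLN1 (mean 12.1 ± 2.09, SD, n = 3). At HIF1A it was lower in every replicate, at 8.16, 9.38 and 10.2 (mean 9.26 ± 1.04, SD, n = 3). The expected number at EGLN1 rests on the commonest control background of each replicate, and that at HIF1A on a higher one. The ratios therefore do not rank the 2 sites on a like background. EGLN2, which encodes PHD1 and lies at chr19:41304901-41314339 on the plus strand, was the 1 gene without an HA peak in any list, although H3K4me3 regions of 1667 bp (ProMMP2-3xHA) and 2095 bp (WT) covered its TSS.

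EGLN3 encodes PHD3, itself a hypoxia-induced gene. The annotated gene spans chr14:34393433-34931980 on the minus strand because of 1 transcript without a defined coding sequence that begins beside the TSS of SPTSSA, whereas the canonical transcript is chr14:34393433-34420280. The site at the canonical TSS, chr14:34420095-34420279, reached 5.14 and 4.56 in replicates 1 and 3 (mean 4.85 ± 0.410, SD, n = 2), in the UTR of exon 1. Upstream, chr14:34529227-34529611 had fold enrichments of 4.18 and 5.73 in replicates 2 and 3 (mean 4.95 ± 1.10, SD, n = 2) and overlapped H3K4me3 of both lines. Farther upstream, chr14:34644233-34644505 lay 224089 bp from the canonical start and 47578 bp from the nearest coding EGLN3 TSS, and reached 6.21 and 8.08 in replicates 1 and 2 (mean 7.15 ± 1.33, SD, n = 2). Each EGLN3 site was thus missing from a different replicate. The farthest site had the highest enrichment of the 3 and lay 26511 bp (ProMMP2-3xHA) and 114534 bp (WT) from H3K4me3, with 48 (35.4 to 63.6) and 55 (41.4 to 71.6) fragments.

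VHL, the substrate receptor that binds hydroxylated HIF alpha, lies at chr3:10183462-10195351 on the plus strand, and its merged HA site at chr3:10183599-10183745 is in coding exon 1. It overlapped a peak of replicate 2 only, with a fold enrichment of 3.61 and 58 fragments against 14.0 expected. HIF1AN encodes factor inhibiting HIF (FIH) and is annotated at chr10:102288829-102319755 on the plus strand, with the canonical TSS at position 102295700. Its site at chr10:102295716-102295887 in coding exon 1 overlapped a peak of replicate 3 only, with a fold enrichment of 3.71 and 48 fragments against 10.8 expected. Both sites were low among the peaks of their replicate, at percentiles 11.1 (VHL) and 15.6 (HIF1AN). Both also stood on a raised control background, of 5.00 fragments per base at VHL and 3.59 at HIF1AN.

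**Figure D2:**
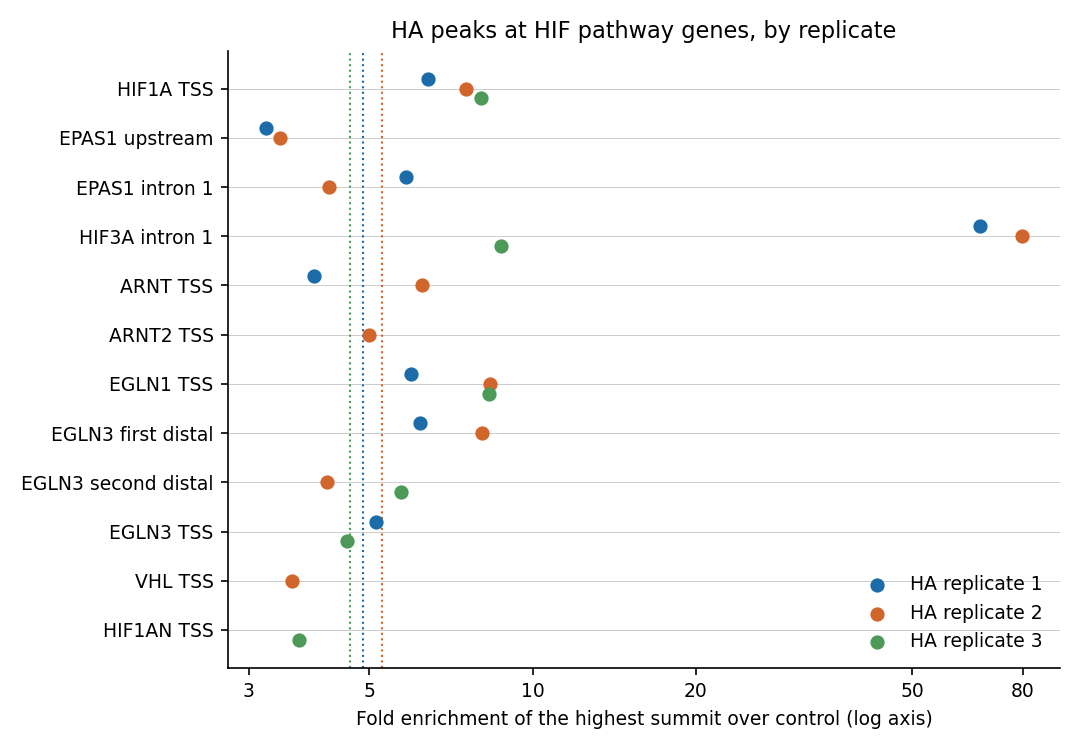
Fold enrichment of the highest summit (log axis) at each HA site of the HIF pathway genes, 1 point for each replicate with a peak there; dotted lines mark the median of all peaks of each replicate (4.88, 5.29 and 4.60). HIF3A stands apart in replicates 1 and 2 (66.7 and 79.7), and in replicate 3 (8.75) it lies next to EGLN1 (8.30) and HIF1A (8.04).

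**Figure D3:**
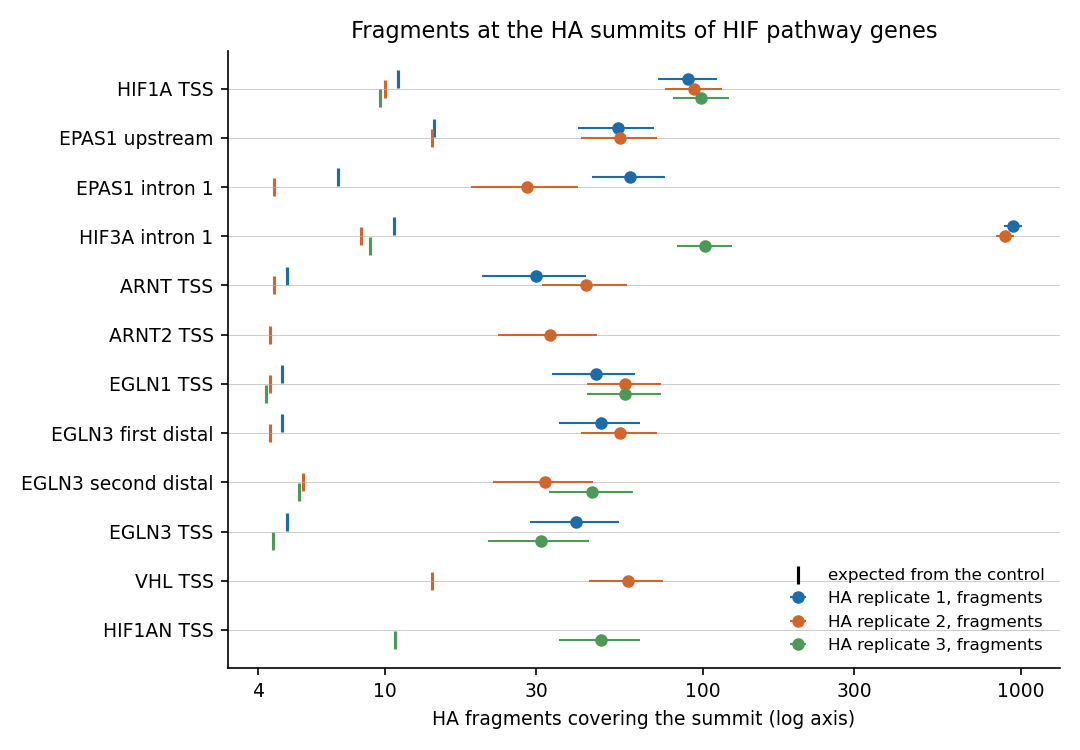
HA fragments that cover each summit (points, log axis, bars show the 95% Poisson interval) and the number expected from the control (vertical ticks), by replicate. Every point lies above its tick, and the ticks of EPAS1 upstream and VHL lie farthest right (14.0 to 14.3 expected fragments).

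Ordered by mean fold enrichment over the replicates that had a peak, the HIF3A site was followed by EGLN1, HIF1A, the first distal site of EGLN3, ARNT, EPAS1 intron 1, ARNT2, the second distal site of EGLN3, the TSS of EGLN3, HIF1AN, VHL and EPAS1 upstream. From EGLN1 to the first distal EGLN3 site (7.54 to 7.15), and from ARNT to the EGLN3 TSS (5.12 to 4.85), neighbours differed by less than their SD where they had one. A replicate without a peak has no value, which says that no peak passed the authors' q-value of 0.05 there.

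The share of genes with HA at the TSS was compared with the same share over all genes, in a window of 1 kb. A merged HA peak lay near the 5′ end of 4 of the 10 genes (HIF1A, ARNT, EGLN1 and VHL), against 28.2% of all protein coding genes. With canonical TSSs the number was 7, after the addition of EPAS1, EGLN3 and HIF1AN, against 30.4%, and with the TSSs of any coding transcript it was 8, after the addition of HIF3A, against 31.8%. The 3 genes added by canonical TSSs are those whose annotated 5′ end belongs to another transcript and lies more than 1 kb from the canonical TSS. Peaks of every replicate lay near the 5′ end of 2 genes (HIF1A and EGLN1), against 16.1%, and of the same 2 with canonical TSSs, against 17.5%. With any coding transcript there were 3, including HIF3A, against 18.5%. HIF3A enters the counts of 8 and 3 only through the site by which the group was chosen.

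By replicate, an HA peak lay near the canonical TSS of 5 genes in replicate 1, against 22% of all genes, of 6 in replicate 2, against 29.9%, and of 4 in replicate 3, against 30.8%. HIF1A and EGLN1 were in all 3 sets, EPAS1 and ARNT in replicates 1 and 2, EGLN3 in replicates 1 and 3, and ARNT2, VHL and HIF1AN in 1 replicate each.

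**Figure D4:**
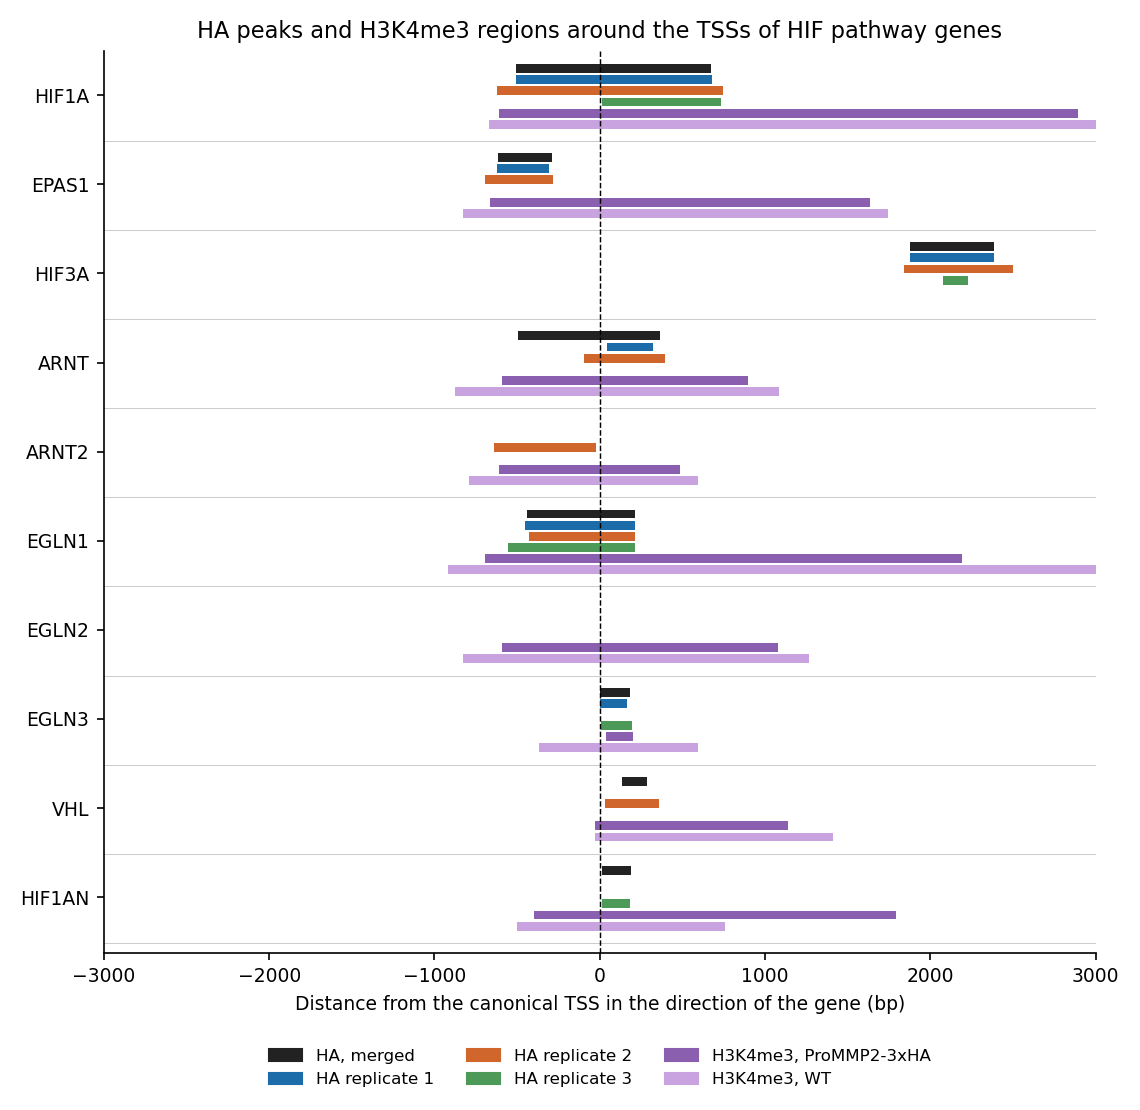
HA peaks (merged, then replicates 1 to 3) and H3K4me3 regions of both lines as bars, by distance in bp from the canonical TSS (dashed line) in the direction of each gene, 3 kb to either side. H3K4me3 bars lie at the TSSs of 9 genes and not at HIF3A, whose HA bars are centred 2130 bp downstream, and EGLN2 shows H3K4me3 without an HA bar.

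H3K4me3 marked most of these genes. In ProMMP2-3xHA cells it lay near the 5′ end of 8 of 10 genes, against 57% of all genes, and near the canonical TSS of 9, against 61.2%. In WT cells the numbers were also 8 and 9, against 60.9% and 65%. HIF3A was the gene without H3K4me3 under either definition, and EPAS1 had none near its annotated 5′ end but had 2300 and 2574 bp at its canonical TSS. Among genes with H3K4me3 of both lines, a merged HA peak lay near 4 of 8 by the 5′ end, against 49% of all such genes, and near 7 of 9 by canonical TSS, against 49.2%. The first share is at the background and the second above it. The definitions differ in EPAS1, EGLN3 and HIF1AN, and the 5′ ends of EGLN3 and HIF1AN lie within 1 kb of the TSSs of SPTSSA and NDUFB8.

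The H3K4me3 regions of the 9 marked genes were compared between the lines, with 1 library each and hence no test. WT regions were wider at 8 of the 9, where 91.8% of all regions that overlapped 1 to 1 were wider in WT. The median ratio of WT to ProMMP2-3xHA width was 1.26 for the 9 genes and 1.30 for all regions that overlapped 1 to 1. The 9 genes were taken by the region nearest the canonical TSS in each line, so these sets were chosen differently. EGLN3 had the highest ratio, 5.90, with 163 bp in ProMMP2-3xHA and 961 bp in WT cells. HIF1AN was the exception, with 2186 bp in ProMMP2-3xHA and 1258 bp in WT cells and a ratio of 0.575. The H3K4me3 lists give no depth, for which the study states only a minimum common to its libraries, and the part of depth in these widths was not tested.

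Within the gene body, a merged HA peak lay more than 1 kb from the annotated 5′ end in 4 of 10 genes (EPAS1, HIF3A, EGLN3 and HIF1AN), against 9.67% of all genes. That of HIF1AN was at its canonical TSS within H3K4me3, and that of HIF3A was 490 bp from a coding TSS. The number with such a peak more than 1 kb from every coding TSS was 2 (EPAS1 and EGLN3), against 3.25% of all genes. The number with such a peak found in every replicate was 1 (HIF3A), against 5.08%. HIF3A is among the 4, and is the whole of the 1, through the site by which the group was chosen. Genes with a merged HA peak in the gene body were long. Their median length was 53418.5 bp, compared to 27219 bp for all genes and 55642 bp for the 10 HIF pathway genes, and the part of length in the count was not tested.

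The HIF3A site was then set against the merged peaks. Of 7216 merged peaks, 3778 were found in every replicate, and 222 of these (5.88%) lay more than 1 kb from H3K4me3 of both lines. HIF3A was first of the 3778 by mean, by median and in replicates 1 and 2, but 369 in replicate 3 and 123 by the lowest replicate. The peak next to it by mean, at chr14:47099513-47099995, had fold enrichments of 43.2, 53.3 and 7.75 (mean 34.7 ± 23.9, SD, n = 3) and also lay away from H3K4me3, by 19344 bp in ProMMP2-3xHA and 19396 bp in WT cells. At HIF3A the ratio of replicate 3 to the mean of replicates 1 and 2 was 0.120, the lowest of the 3778 peaks, whose median was 0.923 with a 5th to 95th percentile range of 0.588 to 1.41. Peaks away from H3K4me3 had a median ratio of 0.790 and peaks near H3K4me3 of both lines 0.933.

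On the assembled chromosomes there were 7211 merged peaks, of which 10.4% overlapped peaks of replicates 1 and 2 but not 3. Among the 1005 peaks away from H3K4me3 the share was 36.3%, and the EPAS1 intron 1 and first distal EGLN3 sites belong to these. Peaks of replicate 2 alone made up 5.21% of all merged peaks and 9.55% of those away from H3K4me3. For replicate 1 alone the shares were 4.26% and 16.2%, and for peaks found in no replicate 1.26% and 1.89%. Each of these patterns without replicate 3 was thus more common away from H3K4me3. Among the 9 sites of HIF pathway genes near H3K4me3, 4 had no peak of replicate 3. Of these, EPAS1 upstream and ARNT had peaks of replicates 1 and 2. VHL had a peak of replicate 2 only, as did ARNT2, which is not in the merged list. Another 3 had a peak of replicate 3 but not of every replicate. HIF1A and EGLN1 had values of replicate 3 within or above the range of replicates 1 and 2. Sites of HIF pathway genes both near and away from H3K4me3 were thus missing from replicate 3. The 4 of 9 were not set against a share over peaks near H3K4me3 alone. As inferred from the lists, replicate 3 had a mean HA coverage of 4.23 and a depth ratio to control of 3.00. These were between or close to those of replicates 1 (4.74 and 3.57) and 2 (4.34 and 2.81). The part of any difference between the libraries in the HIF3A values was not tested.

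**Figure D5:**
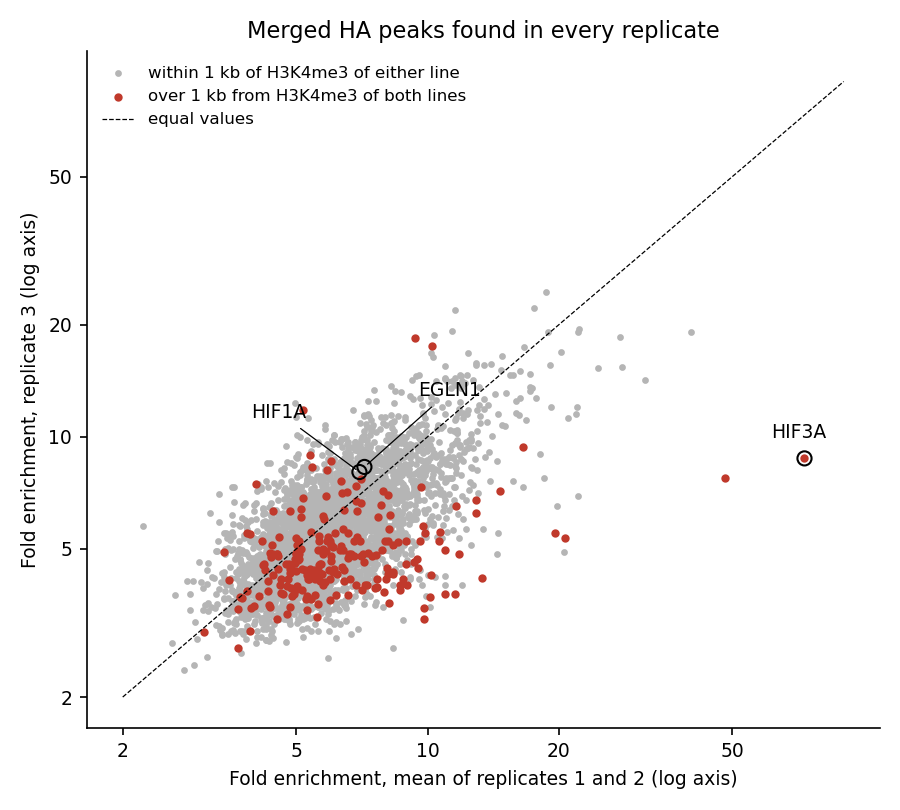
Fold enrichment of replicate 3 against the mean of replicates 1 and 2 (both log axes) for the 3778 merged HA peaks found in every replicate, with peaks more than 1 kb from H3K4me3 of both lines in red. HIF3A lies far to the right of the line of equal values (ratio 0.120), while HIF1A and EGLN1 lie above it.

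The genes most like HIF3A were the 5 with the highest mean enrichment among the 105 merged peaks found in every replicate, within a gene body and away from H3K4me3 of both lines, for which the median of the mean fold enrichment was 5.46. The sites of ST3GAL3, TCP10L and RCAN1 each also lie in another overlapping gene, which at TCP10L is CFAP298-TCP10L. ST3GAL3, a sialyltransferase gene, had fold enrichments of 21.7, 19.7 and 5.34. TCP10L had 13.3, 12.6 and 6.78, JRK 12.9, 13.7 and 4.18, FBXO44 9.78, 11.6 and 5.56, and RCAN1, an inhibitor of calcineurin, 10.2, 11.0 and 5.26. In each, replicate 3 was the lowest of the replicates, at 0.258 to 0.524 of the mean of replicates 1 and 2. The value of HIF3A in replicates 1 and 2 was more than 3 times that of any of them, and its value in replicate 3 differed less.

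Sequence at the sites was read in 300 bp around the centre. The HIF3A window had a GC content of 69.3%, within the range of 66.0 to 80.3% at the sites near H3K4me3, but 6 CpG, compared to 24 to 46 CpG at those sites. The median over merged peaks was 28 CpG near H3K4me3 of both lines and 5 away from it, with a 5th to 95th percentile range of 1 to 15 CpG for the latter. In CpG number, HIF3A was therefore among the peaks away from H3K4me3, whose median GC content was 53%, and in GC content above their median. A HIF response element core on either strand was found in 59.8% of all 7211 windows, in 63.1% of those near H3K4me3 and in 40.8% of those away from it. The HIF pathway sites held a core in 7 of 12 windows, at HIF1A, EPAS1 upstream, HIF3A, ARNT2, EGLN1, and the second distal site and TSS of EGLN3. This share is at the background, and a match of 5 letters says nothing about binding of HIF.

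Other genes of the pathway were examined in 3 lists of 56 genes. A merged HA peak lay near the canonical TSS in 30.4% of all genes, and in 49.2% of those with H3K4me3 of both lines. The first list, of the VHL complex and HIF coactivators, also holds chaperone genes and others outside both classes. Of its 12 genes, 10 had a merged HA peak near the canonical TSS, and H3K4me3 of both lines marked all 12. The highest values were at HSP90AA1, a chaperone of HIF alpha, with 23.4, 39.7 and 14.2, and EP300, the coactivator that HIF1AN keeps from HIF, with 8.23, 9.46 and 8.85. Of 19 glycolysis targets 11 had a merged HA peak, among 18 with H3K4me3 of both lines, led by the glycolytic enzyme genes GAPDH, with 14.5, 18.1 and 12.7, and TPI1, with 10.0, 14.8 and 16.8. Of 24 other targets with a canonical transcript 11 had one, among 20 with H3K4me3 of both lines, led by HMOX1, the haem oxygenase, with 9.89, 9.25 and 7.32, and NDRG1, with 8.61, 8.45 and 5.29. CA9, a carbonic anhydrase, and EPO, which encodes erythropoietin, had neither an HA peak nor H3K4me3 of either line.

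In all, 32 of 55 list genes (58.2%) had a merged HA peak near the canonical TSS, against 30.4% of all genes. H3K4me3 of ProMMP2-3xHA cells marked 50 of the 55, against 61.2%, and that of WT cells 51, against 65%. Among the 50 marked in both lines, 32 (64.0%) had a merged HA peak, against 49.2%. The mean fold enrichment of TSS peaks found in every replicate had a median of 6.72 over 21 list genes and 5.89 over 3024 genes. On that scale HIF1A stood at percentile 77.0 and EGLN1 at percentile 79.6. The means of HIF1A (7.33) and EGLN1 (7.54) were above the median of the list genes. They were below those of GAPDH, TPI1 and HSP90AA1, which were named because they had the highest means of their lists. In replicate 3, HSP90AA1 (14.2), GAPDH (12.7), TPI1 (16.8) and EP300 (8.85) were above HIF3A (8.75).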

How the data were processed

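Peak lists of HA nChIP-Seq (3 ProMMP2-3xHA replicates and their merge) and H3K4me3 (1 library per line) were analysed. Per the methods of the study and its processing notes, the authors trimmed reads with Trim Galore 0.6.0, aligned pairs to hg19 (GRCh37) with Bowtie2 2.3.5.1, filtered them with SAMtools 1.9, removed duplicates with Picard and called peaks with MACS2 3.0.0a6. The list names give an HA control immunoprecipitation as the control. The deposited replicate lists give a score, the fold enrichment as a ratio, and −log10 p-values and −log10 q-values for each summit. The deposited merged HA and H3K4me3 lists combine narrow and broad calls without values.

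Peaks of a replicate were unique intervals with their highest summit, and a merged peak was found in a replicate when they overlapped by at least 1 bp. TSSs came from GENCODE 44 on GRCh37, by gene 5′ end, canonical transcript (19881 genes) or any coding transcript (19821 genes), in windows of 1 kb. Fragments at summits were recovered from fold enrichment and the Poisson p-value, which allow several pairs of HA pileup and control background. The pair kept had to give a whole number of fragments and a background no lower than the commonest one. The ratio of HA to control depth used for this was itself estimated from the same lists. The expected number is the control background times the depth ratio. The recovery of fragments and the window search were tested on simulated data. All simulated counts lay below the 947 and 892 fragments at HIF3A in replicates 1 and 2. They also lay above the 28 at the second EPAS1 site in replicate 2. Counts of these sizes were thus not covered by the simulation. Python 3.11.15, pandas 2.3.3, scipy 1.17.1 and pysam 0.24.0 were used.

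The genes and lists were chosen with earlier results of these data known, so no test was run over them, and shares are read beside all genes. Named were all 10 genes, from each further list the 2 genes with the highest mean TSS enrichment and the first 2 with neither HA nor H3K4me3, the 5 genes most like HIF3A, and the peak next to HIF3A by mean. Replicates were stated by the study to be independent biological experiments. Alternatives were the TSS definition, the window, the q-value, overlap with every replicate, and leaving out each replicate.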

Additional observations from a re-analysis of the deposited data

How the results depend on the processing

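The 18 results were recomputed under 62 alternatives. Of these, 52 moved the value by less than its error or the count by at most 1.5 times, and 10 moved it further. HIF pathway genes with a merged HA peak near the TSS changed from 4 to 7 with canonical TSSs, to 8 with the TSS of any coding transcript and to 2 with merged peaks found in every replicate. The share over all genes changed from 28.2% to 30.4% and 31.8% with those TSS definitions, to 26.7% with a window of 500 bp and to 29.5% with 2 kb. Genes with a merged HA peak in the gene body changed from 4 to 1 with peaks found in every replicate and to 2 away from every coding TSS. The rank of the HIF3A site changed from 1 to 123 by the lowest replicate. Its mean fold enrichment ranged from 37.7 to 73.2 when 1 replicate was left out, and its rank by the mean stayed at 1. The alternative TSS definitions act through the transcripts they include, and the cause of the other changes was not tested.

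No paired analysis was possible because the groups share fewer than 2 replicate numbers. At the sites found in 1 replicate 33 to 58 fragments lay at the summit, and no value is known where no peak was called. H3K4me3 rests on 1 library per line. The untagged cells were not analysed as a separate HA list, so HA signal without the tag was compared only through the control used by the authors.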
